A study of Rhagoletis pomonella with 50 samples.

Results

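The comparison described here is the first monthly step sampled in cold storage, 3 months against 2 months. It was made in the central nervous system (CNS) of pupae of the apple-feeding population of the fly Rhagoletis pomonella. Its members were all libraries whose titles give the apple host and 3 or 2 months, which are 10 of the 50 libraries of the series, 5 at 3 months and 5 at 2 months. The other 40 libraries were of apple pupae at 4 to 6 months and of pupae from a second host, hawthorn, at 2 to 6 months. They entered the count filter, the scaling of the libraries and the shared estimate of the spread behind the apple calls. Each library was made from a pool of 10 CNS. All pupae came from infested fruit of a single Illinois locality. They were held for 10 days at about 24 °C under 14 h of light and 10 h of dark, and then at 3.5 °C and 95% relative humidity until dissection. No genotype or drug differed between the groups, and the months counted in the labels were the only stated difference between them. The labels do not state whether the pools of a month came from separate cohorts of pupae, so the p-values measure the spread between these pools.

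Diapause is a programmed arrest of development, which this fly passes as a pupa in the soil over winter. In insects the brain controls the arrest through the hormones that later restart adult development, and a long period of cold is usually needed before development can resume. The CNS of such a pupa is therefore sampled to follow how the arrest proceeds towards its end. The features are listed by numbered identifiers without gene names, and 0 of these matched the reference gene table, so no role can be given to any feature, and neither the dissected tissue nor other tissues carried along could be checked with marker genes. Gene lists of pathways and cell types could not be matched either.

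Expected counts, which are estimated numbers of reads per feature, summed to 14976846 to 22131378 per library at 3 months and to 15304315 to 30540959 at 2 months. Of the 29399 features listed, 13862 had enough reads to be tested. Levels are given as CPM, which are reads per 1000000 reads of a library after TMM scaling, which corrects each library total by a factor that aligns the bulk of features between libraries. The TMM factors lay between 0.939 and 1.03 at 3 months and between 1.08 and 1.17 at 2 months, without overlap. The 10 most abundant features of the series took 23.1 ± 1.03% of the counts at 3 months and 20.6 ± 1.11% at 2 months (SD, n = 5 each), a difference with an exact two-sided permutation p of 0.0159 and an adjusted p of 0.0635 over the 4 library measures tested. The total count (exact permutation p = 0.500), the length slope (0.516) and the number of features with a read at a common depth (0.262) did not pass the test either. The length slope measures how far longer transcripts are over-represented in a library. For these 10 libraries the labels and files give no other batch than the sequencing lane. Of 3 months, 1 library was run in lane 3 and 4 in lane 5, whereas 2 libraries of 2 months were run in lane 2 and 3 in lane 3.

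In apple pupae, 178 features were higher (1.28% of those tested) and 109 were lower (0.786%) at 3 months than at 2 months, which is 287 of the 13862 features tested (2.07%; edgeR's quasi-likelihood test, Benjamini-Hochberg adjusted p under 0.05). Among the called features the rises were larger than the falls. The median SE was also larger for the higher features (0.217) than for the lower ones (0.158), and a change must be larger to be called at a larger SE. Over all features tested the middle 50% of log2 fold changes lay between -0.23 and 0.26. The higher features had a median log2 fold change of 0.94, with the middle 50% between 0.72 and 1.23, and 76 of them (42.7%) were changed at least 2-fold. The lower features had a median of -0.61, with the middle 50% between -0.73 and -0.53, and 6 of the 109 were changed at least 2-fold. Over all features tested the median log2 fold change was 0.01, 51.0% of features had a positive value and 49.0% a negative one, and 2183 (15.7%) had an unadjusted p under 0.05. These are amounts of RNA in whole CNS pools, in which fewer cells of a type and less RNA per cell cannot be told apart.

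**Figure D1:**
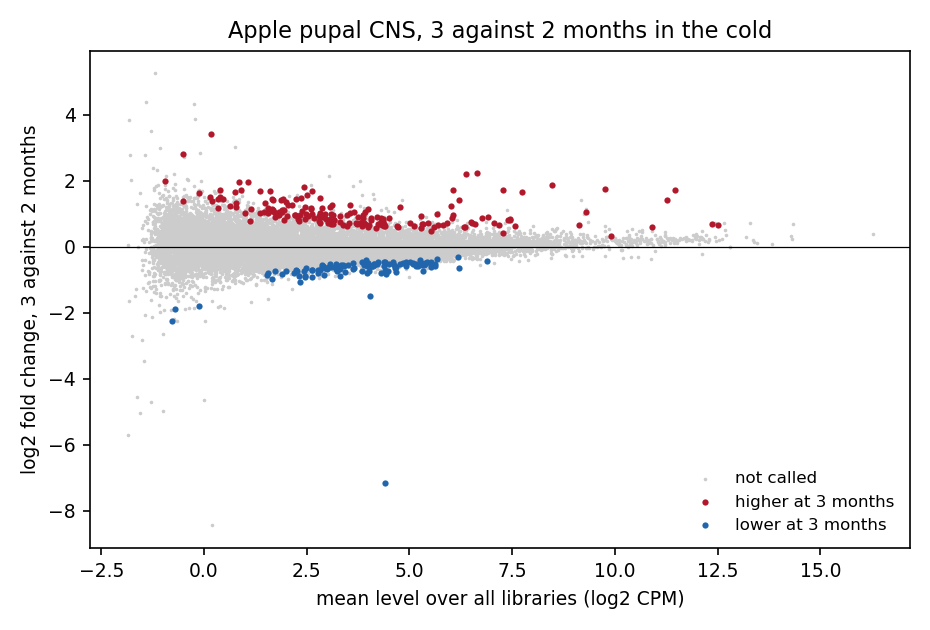
Each point is 1 of the 13862 features, with its mean level over all libraries on the x axis (log2 CPM) and its log2 fold change at 3 against 2 months in apple pupae on the y axis. The 178 higher features (red) reach to the most abundant features on the right, the 109 lower features (blue) lie mostly within 1 log2 unit of 0, and the blue point near -7 is a feature that was high in 1 apple library of 2 months.

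The number of calls depended on single libraries. The count was 59 without replicate 4 and 61 without replicate 5 of 2 months, and 440 without replicate 2 of 2 months. It was 164 without replicate 1 of 2 months, and 166, 150, 126 and 115 without replicates 1, 2, 3 and 5 of 3 months. In these fits the median log2 fold change of the 178 higher features stayed between 0.86 and 1.02, and that of the 109 lower features between -0.67 and -0.56. The features were chosen by their values in the same 10 libraries, so these medians could not move far and are given as a description. The direction of the calls also depended on the scaling of the libraries. With upper-quartile scaling 228 features were higher and 45 lower, where TMM scaling gave 178 and 109, and the median of all features was then 0.07.

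Lane and month overlapped only in lane 3. Within that lane, 1 library of 3 months stood against 3 of 2 months, so the lone library is assumed to vary like the other groups. edgeR's test gave 0 calls there, with 1289 features at an unadjusted p under 0.05. The 178 higher features had a median log2 fold change of 1.02 within lane 3 and of 0.78 between lane 5 of 3 months and lane 2 of 2 months, and the 109 lower features had medians of -0.76 and -0.44. The libraries of all these lanes helped to choose the 178 and 109 features. With the lane as a term in the fit, 6 features were called, 6 higher and 0 lower. Of the 178 higher features 5 kept their call, and of the 109 lower features 0 did. The medians of the 178 and 109 were 0.92 and -0.64 with the term, against 0.94 and -0.61 without it. The median SE of the higher features was 0.299 with the term and 0.217 without it. Lanes 3 and 2 compared within 2 months gave 0 calls and 327 features (2.36%) at an unadjusted p under 0.05. Lanes 5 and 3 within 3 months set 4 libraries against 1, with 474 features (3.42%) at an unadjusted p under 0.05 and 0 calls, and neither count limits how far lane affects the values. Lane 5 of 3 months and lane 2 of 2 months hold no library of lane 3. Between these, 700 features (5.05%) had an unadjusted p under 0.05 and 1 was called. That share is near what a cut of 0.05 passes where nothing changes. Of the 700, 449 were higher, and 346 of the 449 (77.1%) were also higher within lane 3, against 47.6% of all features. Likewise 251 were lower, and 180 of these (71.7%) were also lower within lane 3, against 52.3% of all features. The median log2 fold changes of these features, chosen between lanes 5 and 2, were 1.04 and -0.58 there, and 0.55 and -0.32 within lane 3.

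The largest well-replicated rises belonged to a pair of short features. Gene19715, with a transcript of 783 bp, had 131, 81.3, 119, 151 and 188 CPM in the libraries of 3 months, against 33.7, 36.9, 22.6, 29.6 and 20.8 CPM in those of 2 months. Every library of 3 months was above every library of 2 months, at a mean of 134 ± 39.4 against 28.7 ± 6.94 CPM (a log2 fold change of 2.22 with an SE of 0.366 and an adjusted p of 0.00131; SD over 5 libraries each). Gene28105, with a transcript of 545 bp, had 115, 72.5, 93.7, 130 and 121 CPM at 3 months, against 24.6, 27.6, 22.0, 25.6 and 17.0 CPM at 2 months. Here too the months did not overlap (a log2 fold change of 2.19 with an SE of 0.429 and an adjusted p of 0.00537). Both rises kept their call without any 1 of the 10 libraries, at log2 fold changes of 2.07 to 2.36 for gene19715 and 2.09 to 2.30 for gene28105. With the lane term gene19715 was called (2.27, adjusted p = 0.0277) and gene28105 was not (2.29, adjusted p = 0.144). Within lane 3 neither was called (2.43 and 2.42, adjusted p = 0.142 and 0.243), nor between lane 5 of 3 months and lane 2 of 2 months (1.93 and 2.00, adjusted p = 0.666 and 0.723).

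Neither feature kept a steady level afterwards. Gene19715 had 40.7 to 133 CPM at 4 months, 128 to 226 CPM at 5 months and 23.7 to 137 CPM at 6 months in apple pupae. Gene28105 had 35.2 to 118, 72.1 to 187 and 17.4 to 110 CPM at these months. The libraries of 4 and 6 months therefore spread over a wider range than those of 2 months, and at 6 months the lowest library of each feature was as low as the libraries of 2 months. The highest library of both features at 4 months was replicate 3.

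Other rises were clear in relative terms or large in amount. The feature with the smallest adjusted p, with 3 transcripts averaging 3266 bp, had 72.9, 70.5, 103, 57.7 and 105 CPM at 3 months, against 33.7, 34.6, 40.9, 23.9 and 21.3 CPM at 2 months (a log2 fold change of 1.40 with an SE of 0.167 and an adjusted p of 8.63e-07). The months did not overlap, and later levels in apple pupae stayed above those of 2 months, with 53.5 to 78.4 CPM at 4 months, 62.9 to 113 CPM at 5 months and 51.5 to 97.3 CPM at 6 months. The most abundant feature called higher ranked 23rd of all features by mean CPM. It had 5555 ± 726 CPM at 3 months and 3494 ± 725 CPM at 2 months (a log2 fold change of 0.67 with an SE of 0.151 and an adjusted p of 0.0111). Its lowest library of 3 months, at 4839 CPM, was above its highest of 2 months, at 4711 CPM.

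As a group, the 178 higher features took 2.50 ± 0.258% of all counts at 3 months and 1.56 ± 0.167% at 2 months (SD, n = 5 each). The 10 of them with the largest share at 3 months made up 2.09% of counts at 3 months and 1.30% at 2 months, and the other 168 made up 0.416% and 0.253%. A few abundant features thus held most of the reads of the 178. Their median level was 7.16 CPM, against 5.85 CPM for all features tested. In all, 123 of the 178 had months that did not overlap (2.47% of all features tested did so in that direction). These shares and counts use the values that chose the features and are given as a description.

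Among the called features the falls were smaller. By the rule for named features, the first was gene11672, with 3 transcripts averaging 2338 bp. It had 4.67, 4.22, 4.51, 3.94 and 3.66 CPM at 3 months, against 6.65, 5.06, 9.11, 9.73 and 14.1 CPM at 2 months (a log2 fold change of -1.08 with an SE of 0.289 and an adjusted p of 0.0352). The libraries of 3 months lay close together and those of 2 months were spread, with replicate 5 the highest. The second, gene9772, with 4 transcripts averaging 6519 bp, had 6.88, 5.51, 7.27, 6.17 and 4.63 CPM at 3 months, against 7.80, 7.75, 9.99, 14.6 and 17.8 CPM at 2 months (a log2 fold change of -0.92 with an SE of 0.248 and an adjusted p of 0.0360). Replicates 4 and 5 of 2 months stood highest in it. Both calls ended without replicate 4 or 5 of 2 months and without any 1 of the replicates of 3 months, with adjusted p up to 0.196 for gene11672 and 0.206 for gene9772. Over all 10 fits that left out 1 library their log2 fold changes were -1.24 to -0.86 and -1.04 to -0.72. Both also ended with the lane term (-0.81 and -0.53, adjusted p = 0.714 and 0.821) and within lane 3 (-1.23 and -1.04, adjusted p = 0.480 and 0.478). Between lane 5 of 3 months and lane 2 of 2 months they were -0.51 and -0.40, not called either.

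The feature called lower with the smallest adjusted p had tighter groups. It had 21.4, 21.2, 22.5, 23.8 and 18.9 CPM at 3 months, against 35.1, 31.3, 36.0, 43.5 and 40.1 CPM at 2 months (a log2 fold change of -0.79 with an SE of 0.151 and an adjusted p of 0.00498). Its levels were lower still at 5 months, with 10.3 to 15.2 CPM, and lay at 17.7 to 27.0 CPM at 6 months. The most abundant feature called lower had 143 to 156 CPM at 3 months, against 177 to 234 CPM at 2 months (a log2 fold change of -0.43 with an SE of 0.119 and an adjusted p of 0.0454). It had 90.4 to 123 CPM at 4 months, 89.8 to 111 CPM at 5 months and 85.1 to 121 CPM at 6 months, below every library of 3 months. In all, 74 of the 109 lower features had months that did not overlap (3.30% of all features tested did so in that direction). The 109 features took 0.199 ± 0.0213% of counts at 3 months and 0.347 ± 0.0331% at 2 months.

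**Figure D2:**
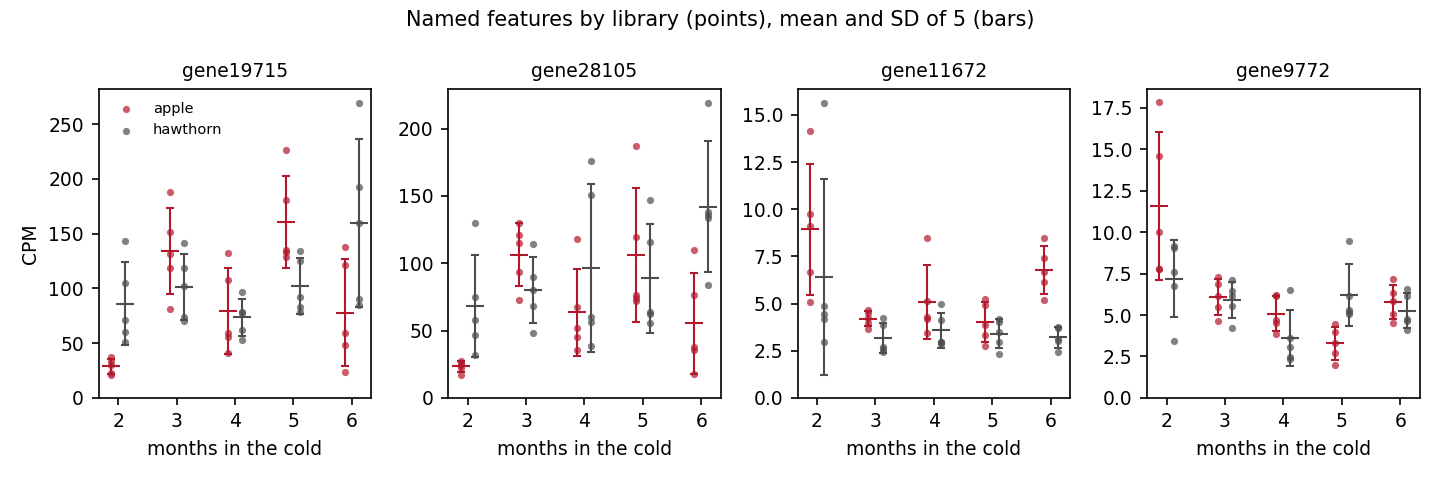
CPM of the features named by rule in every library (points), by months in the cold on the x axis, in apple (red) and hawthorn (grey) pupae, with the mean and SD of 5 libraries as bars. In apple, gene19715 and gene28105 are low in all 5 libraries of 2 months, and gene11672 and gene9772 are highest there in replicates 4 and 5.

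Some called features rested on 1 library. The largest rise among the called features, with 3.42 as its log2 fold change (SE 0.717, adjusted p = 0.00667), had 25.1 CPM in replicate 4 of 3 months and 0.175 to 0.415 CPM in the other 4, against 0.181 to 0.790 CPM at 2 months. The largest fall among them (-7.16, SE 1.78, adjusted p = 0.0247) had 0.293 to 0.885 CPM at 3 months, against 408 CPM in replicate 2 of 2 months and 0.423 to 1.19 CPM in its other 4 libraries. Without the library that stood apart, the months overlap in both. In hawthorn the feature with the largest fall was likewise high in single libraries, with 189 and 225 CPM in replicates 1 and 3 of 5 months and 192 CPM in replicate 3 of 6 months. Both features were picked out after their values were seen. A library set well apart from the other 4 of its month, by Dixon's criterion for 5 values, was found in 29 of the 178 higher features (16.3%) and 8 of the 109 lower ones (7.34%), against 13.8% of all features tested. The group medians went the same way as the fold change in 177 of the 178 and in all 109. These medians use the values that chose the features, so their direction is given as a description.

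The features that rose and those that fell differed in abundance. By mean CPM of the 10 libraries, 5 of 154 features at 1000 CPM or more were called higher (3.25%) and 0 lower. From 100 to 1000 CPM, 12 of 915 were higher (1.31%) and 2 lower (0.219%). From 10 to 100 CPM the order turned, with 57 of 4539 higher (1.26%) and 71 lower (1.56%). From 1 to 10 CPM, 90 of 5543 were higher (1.62%) and 35 lower (0.631%), and under 1 CPM 14 of 2711 were higher and 1 lower. The median SE of the log2 fold change was 0.501 under 1 CPM and 0.150 from 100 to 1000 CPM, so small changes of scarce features were less detectable. The median log2 fold change of all features in these classes was 0.21 at 1000 CPM or more, 0.08 from 100 to 1000 CPM, -0.05 from 10 to 100 CPM, -0.01 from 1 to 10 CPM and 0.17 under 1 CPM.

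Called features were also longer than most. The median transcript length was 2458 bp for the higher features and 2154 bp for the lower ones, against 1649 bp for all features tested. Of the 1476 features of 4000 bp or more, 3.39% were higher and 0.949% lower, and of the 3312 features under 1000 bp 0.755% were higher and 0.151% lower. The median SE was 0.194 in the longest class and 0.331 in the shortest, and whether length bears on the calls beyond this was not tested. Several annotated transcripts were found for 28.1% of the higher and 39.4% of the lower features, against 27.6% of all. The mean isoform length of a feature, which moves when its transcripts are used in other proportions, differed in 0 of 2440 testable features (limma, lowest adjusted p = 0.271), with 163 (6.68%) at an unadjusted p under 0.05. Of the 58 testable features among the 287, 4 had an unadjusted p under 0.05.

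The libraries of a month differed in how far the called features were displaced. Relative to the mean of all 10 libraries, the median of the 178 higher features was 0.48, 0.39, 0.63, 0.21 and 0.54 on the log2 scale in replicates 1 to 5 of 3 months, against -0.45, -0.14, -0.26, -0.73 and -0.65 in those of 2 months. Replicate 2 of 2 months and replicate 4 of 3 months were the nearest to each other, and replicates 4 and 5 of 2 months lay farthest out. The median of the 109 lower features was -0.34, -0.34, -0.24, -0.14 and -0.45 at 3 months, against 0.24, 0.04, 0.34, 0.44 and 0.44 at 2 months. Replicate 4 of 3 months and replicate 2 of 2 months were again the nearest to each other, and replicates 4 and 5 of 2 months again lay farthest out in their month. The libraries of 3 months differed from those of 2 months by a root mean square of 0.696 log2 CPM on average over all features, while libraries of the same month differed by 0.656 at 3 months and 0.633 at 2 months.

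In later apple libraries the higher features stayed above their level of 2 months. Against the mean of the same 10 libraries, their median was -0.45 ± 0.25 at 2 months, 0.45 ± 0.16 at 3 months, 0.38 ± 0.11 at 4 months, 0.69 ± 0.20 at 5 months and 0.61 ± 0.25 at 6 months (SD, n = 5 each). The lower features did not follow so steady a course, with 0.30 ± 0.17 at 2 months, -0.30 ± 0.12 at 3 months, -0.03 ± 0.06 at 4 months, -0.45 ± 0.08 at 5 months and -0.10 ± 0.20 at 6 months. They were low at 3 and 5 months and nearer to the level of 2 months at 4 and 6 months. The mean TMM factors of apple libraries were 1.13, 0.989, 1.11, 0.955 and 1.14 at 2, 3, 4, 5 and 6 months, and lane 5 held 0, 4, 1, 3 and 0 libraries of these months. Their part in this course was not tested. All these months are read against features chosen with the libraries of 2 and 3 months, so the step between those months is a description of that choice.

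**Figure D3:**
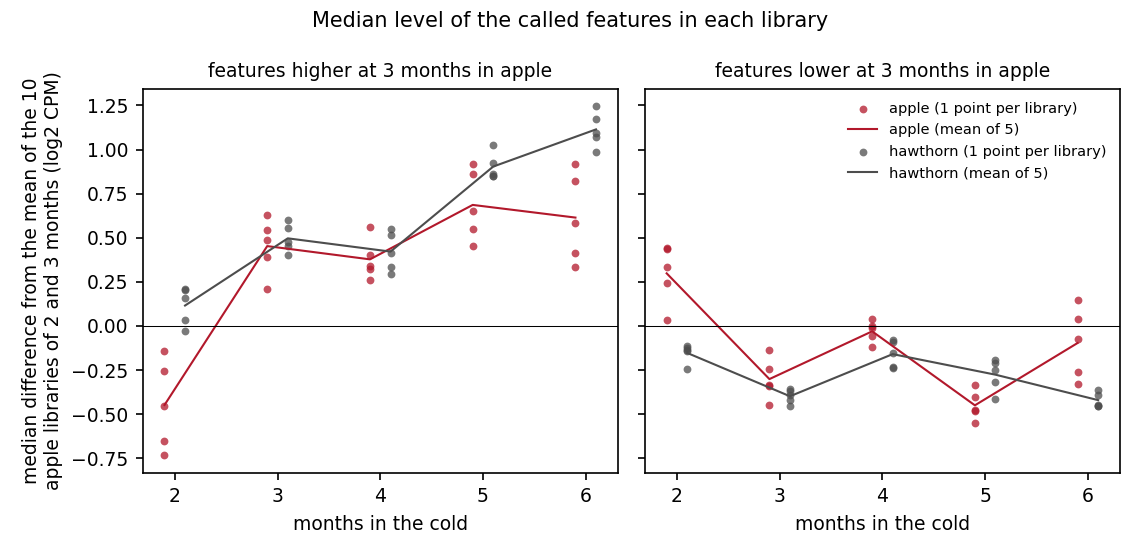
Median over the 178 features higher (left) and the 109 lower (right) at 3 months in apple, in each library, as the difference from the mean of the 10 apple libraries of 2 and 3 months (log2 CPM), by months in the cold; points are libraries and lines join means of 5. Hawthorn libraries (grey) start nearer to the later level at 2 months than apple libraries (red) and end higher on the left. The apple libraries of 2 and 3 months chose these features, so the places of the hosts at 2 months are a description of that choice.

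A later step in apple pupae, 6 months against 4 months, takes its group means from other libraries than those of 2 and 3 months. The count filter, TMM scaling and spread of this step are taken over all 50 libraries. There 53 of all features were called (0.382%), 37 higher (0.267%) and 16 lower (0.115%). With only these groups fitted 1 was called, and with the lane term 1. Replicates 1 to 4 of 4 months were run in lane 6 and replicate 5 in lane 5. Of 6 months, replicate 1 was run in lane 6 and replicates 2 to 5 in lane 7. Replicates 3, 4 and 5 of 6 months had a single index, the tag that marks a library in a lane, where the other libraries of these months had dual ones. The part of lane and index in the changes of the 178 and 109 features was not tested. Of the 178 features that rose at 3 months, 147 (82.6%) were higher again at 6 months than at 4 months, against 50.3% of all features, and 44 of them had an unadjusted p under 0.05 in that direction, where 5.92% of all features did, and 0 in the other. Their median log2 fold change was 0.25, and 3 were called. Of the 109 features that fell at 3 months, 59 (54.1%) were lower at 6 than at 4 months, against 49.7% of all features, with a median of -0.04. Among them 11 had an unadjusted p under 0.05 in that direction (4.86% of all features) and 8 in the other, and 1 was called lower and 1 higher. Over all features 1494 (10.8%) had an unadjusted p under 0.05. The count of 53 was 15, 17, 22 and 13 without replicates 2, 3, 4 and 5 of 4 months, and 9, 2 and 30 without replicates 3, 4 and 5 of 6 months.

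Pupae from hawthorn, the ancestral host, were sampled at the same months under the same conditions and entered no apple group mean. They did enter the count filter, the TMM scaling and the shared estimate of the spread behind the apple calls. The apple medians of the 178 higher and 109 lower features were 0.94 and -0.61 log2 units. Without hawthorn replicates 2 and 4 of 4 months they were 0.95 and -0.60. With only the apple groups of 3 and 2 months fitted, 239 features were called, of which 155 were among the 287. At 3 against 2 months 5 features were called in hawthorn (0.0361%), 2 higher (0.0144%) and 3 lower (0.0216%). With the lane term 11 were called. Hawthorn replicates 1, 2 and 4 of 2 months were run in lane 1 and replicates 3 and 5 in lane 7. Of 3 months, replicates 2, 4 and 5 were run in lane 1, replicate 1 in lane 2 and replicate 3 in lane 6. The part of lane in the hawthorn changes of the 178 and 109 features was not tested. Most features called in apple had the same sign in hawthorn. Of the 178 higher in apple, 159 (89.3%) were higher in hawthorn at 3 months, against 51.1% of all features, and 74 of them had an unadjusted p under 0.05 in that direction, where 5.77% of all features did. Of the 109 lower in apple, 101 (92.7%) were lower in hawthorn, against 48.9% of all features, and 40 of them had an unadjusted p under 0.05 in that direction, where 5.24% of all features did. Their median log2 fold changes in hawthorn were 0.39 and -0.27. In 34 of the 178 and in 9 of the 109 the hawthorn months did not overlap, where 1.78% and 1.67% of all features did so. The features were chosen by their apple values, so no comparison of size between the hosts is drawn from them. Gene19715 had 101 ± 30.2 CPM at 3 months and 86.0 ± 37.9 CPM at 2 months in hawthorn (SD, n = 5 each), where it was not called by edgeR (0.23, adjusted p = 0.860), and gene28105 was not called either (0.23, adjusted p = 0.889).

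**Figure D4:**
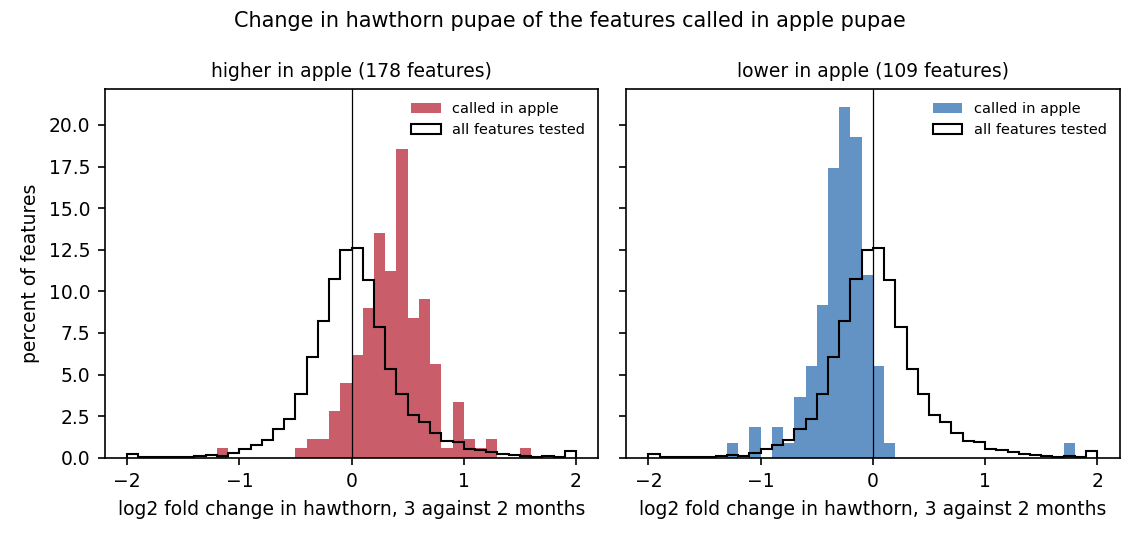
Distribution of the log2 fold change in hawthorn pupae, 3 against 2 months, for the features called higher (left, red) and lower (right, blue) in apple pupae and for all 13862 features tested (black outline), in percent of features per bin of 0.1; values beyond 2 are drawn in the outermost bins. The coloured bars sit mainly to the right of 0 on the left and to the left of 0 on the right, with medians of 0.39 and -0.27.

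The called feature shared by both hosts was gene8895, whose transcripts average 14635 bp. In apple it had 37.6, 37.3, 41.8, 31.9 and 39.9 CPM at 3 months, against 23.5, 25.2, 27.1, 19.2 and 21.7 CPM at 2 months (a log2 fold change of 0.69 with an SE of 0.137 and an adjusted p of 0.00537). In hawthorn it had 38.8, 53.5, 41.2, 41.4 and 49.0 CPM at 3 months, against 34.7, 25.8, 25.9, 19.0 and 25.2 CPM at 2 months (0.78, SE 0.138, adjusted p = 0.00635). The months did not overlap in either host, and the test of the host difference gave an adjusted p of 0.999 (difference -0.09, SE 0.193). The other feature named by rule in hawthorn, gene3366, had 5.04 ± 1.37 CPM at 3 months and 2.27 ± 0.565 CPM at 2 months there (1.13, SE 0.187, adjusted p = 0.00334). In apple it had 3.26 ± 0.321 and 2.82 ± 0.632 CPM (0.21, adjusted p = 0.631), and the host difference was not called (adjusted p = 0.642). The hawthorn count of 5 was 11, 14 and 2 without replicates 1, 2 and 4 of 2 months, and 41, 1, 2, 2 and 3 without replicates 1, 2, 3, 4 and 5 of 3 months. It was 65 by DESeq2 and 0 with only the hawthorn groups of 3 and 2 months fitted, which ends both hawthorn calls, and edgeR's test had 1527 features (11.0%) at an unadjusted p under 0.05.

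The features that rose in apple stood higher in hawthorn at 5 and 6 months than at 3 and 4 months. Against 2 months, their median log2 fold change in hawthorn was 0.39 at 3 months, 0.34 at 4 months, 0.77 at 5 months and 0.999 at 6 months, while all features had medians of 0.01, 0.02, -0.02 and -0.02. At 6 months 132 of the 178 were called higher in hawthorn, where 12.1% of all features were, and 0 were called lower. The features that fell in apple had medians of -0.27, 0.03, -0.14 and -0.30 at the same months, and at 6 months 30 of the 109 were called lower (8.73% of all features) and 4 higher. The values of 4 months include replicates 2 and 4, which stood apart from the other 3 libraries of that group with TMM factors of 0.651 and 0.728, against 0.968 to 1.11. These hawthorn comparisons share their libraries of 2 months and are not independent of each other. Replicates 3, 4 and 5 of 6 months in hawthorn had a single index, as in apple, and its part in these values was not tested.

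For these features the hosts were farther apart at 2 months than at 3 months, a difference that was not tested. At 3 months the median level of the 178 features was 3.22 log2 CPM in apple and 3.08 log2 CPM in hawthorn, and at 2 months it was 2.39 log2 CPM in apple and 2.75 log2 CPM in hawthorn. Apple at 2 months was the lowest of the 10 groups of host and month in 167 of the 178, against 15.2% of all features. The highest group was hawthorn at 6 months in 121 of the 178, against 13.2% of all features. Of the 109 lower features, apple at 2 months was the highest group in 89, against 18.0% of all features. The apple libraries of 2 months chose these features, so these ranks are a description only.

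Whether a feature changed differently in the 2 hosts was tested directly, as the apple change minus the hawthorn change from 2 to 3 months. Of all features 1 was called (0.00721%), gene19693, with 753 (5.43%) at an unadjusted p under 0.05 and 5 called by DESeq2. With only the 4 groups compared in the fit 0 features were called, which ends this call. It was called in both apple and this test, is scarce, and lies below the abundance asked for naming, so it was named after its values were seen. In apple it had 1.62, 1.29, 1.05, 0.835 and 1.17 CPM at 3 months, against 0.363, 0.299, 0.723, 0.346 and 0.406 CPM at 2 months (a log2 fold change of 1.44 with an SE of 0.326 and an adjusted p of 0.0110). In hawthorn it had 1.09, 0.936, 1.15, 0.703 and 1.40 CPM at 3 months, against 1.63, 1.40, 1.54, 2.93 and 3.98 CPM at 2 months (-1.14, SE 0.310, adjusted p = 0.116). The hosts were apart at 2 months and overlapped at 3 months, and the difference between the changes was 2.58 (SE 0.449, adjusted p = 0.00874). Without replicate 1, 2, 4 or 5 of 2 months or 1, 2, 3 or 5 of 3 months in apple the host difference again had 1 call, and it had 2 without replicate 3 of 2 months or replicate 4 of 3 months. No hawthorn library was left out for this test. For the features named in apple the host difference was not called, with adjusted p of 0.508 for gene19715 (difference 1.99, SE 0.499), 0.732 for gene28105 (1.96, SE 0.587), 0.999 for gene11672 (-0.07) and 0.965 for gene9772 (-0.62).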

How the data were processed

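Per the labels, cleaned single-end reads of stranded mRNA libraries were aligned by STAR against R. zephyria, a related species, and RSEM then counted them. For these steps the sources used here name no version, build, annotation or strand setting. RSEM shares reads out between similar features, so near-identical copies and overlapping features are uncertain. The deposited expected counts (estimated counts, per the file headers) were rounded, at a cost of at most 0.000438% of a library total. The deposited TPM and transcript lengths (bp), made by the authors with RSEM, served for the test of isoform length.

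Features were kept by edgeR's filterByExpr (minimum count 10, minimum total 15) on the 10 groups, which kept 99.9% of counts. After TMM scaling, all 50 libraries entered 1 quasi-likelihood fit with a mean for each host and month, with robust estimates in the form used before edgeR 4. All adjusted p-values of features are Benjamini-Hochberg values of this test over all 13862 features unless another is named, and features under 0.05 were called. SE is the log2 fold change divided by the root of the F statistic. CPM uses TMM-scaled totals. Isoform length was tested with limma on log2 length in features with TPM above 0 in all 10 libraries and a length varying by over 1%. The scripts were tested on simulated data. No pair of libraries of a group agreed within sampling noise. Lanes and index types were read from run information in the deposited data. Software was R 4.3.3, edgeR 4.0.16, limma 3.58.1, DESeq2 1.42.0, Python 3.11.15 and matplotlib 3.10.9.

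The comparison, lists and tests were chosen with earlier results of these data known. The rule for named features takes, among called features whose log2 CPM averages 1 or more over all libraries, the 2 largest rises and the 2 largest falls whose months do not overlap, and the same was asked in hawthorn. The most abundant called feature and the one with the smallest adjusted p are given without identifier. Alternatives were other scalings, no filter, DESeq2, fewer libraries, lane or length slope as a term, a replicate block and each library left out. For the host difference only the apple libraries were left out in turn.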

Additional observations from a re-analysis of the deposited data

Results flagged for a closer look

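In apple pupae of 2 months, gene19693 had 0.723 CPM in replicate 3, which stood apart from the other 4 libraries of that month (0.299 to 0.406 CPM). In apple pupae of 2 months, the feature with the largest fall had 408 CPM in replicate 2, against at most 1.19 CPM in the other 4. In apple pupae of 3 months, the feature with the largest rise had 25.1 CPM in replicate 4, against at most 0.415 CPM in the other 4. A library is set apart in this way in about 1 in 20 groups by chance. For gene19693 the change from 2 to 3 months was 2.58 log2 units higher in apple than in hawthorn, by a direct test of the difference (adjusted p = 0.00874).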

How the results depend on the processing

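The count of 287 in apple at 3 against 2 months was 154 with no low-count filter, 549 without hawthorn replicates 2 and 4 of 4 months, which had TMM factors of 0.651 and 0.728, 510 by DESeq2, 508 with the length slope as a covariate, 6 with the lane term, 0 within lane 3 (1289 at an unadjusted p under 0.05) and 1 between lane 5 of 3 months and lane 2 of 2 months, a contrast added after seeing the data, as was the fit to the 25 apple libraries alone (270). With 1 library left out it was between 59 and 440. The hawthorn count of 5 was 38 without the 2 hawthorn libraries, 0 with only the groups compared (1831 at an unadjusted p under 0.05), 11 with the lane term, 2 with the length slope and 65 by DESeq2, and between 1 and 41 with 1 library left out. The host difference, 1 feature, gave 0 with only the groups compared (1202 at an unadjusted p under 0.05), 3 with the length slope and 5 by DESeq2. It gave 1 to 2 with 1 apple library left out, and no hawthorn library was left out for it. The 53 features of 6 against 4 months in apple were 33 with no filter, 141 without the 2 hawthorn libraries, 1 with only the groups compared, 1 with the lane term, 166 with the length slope, 149 by DESeq2, and 2 to 78 with 1 library left out. Isoform length gave 0 to 2 features with 1 library left out. The causes were not tested, other than that leaving out libraries or filters changes how many libraries or features are tested. Over the 22 alternatives each, gene19715 kept its call in 20, gene28105 in 19, gene11672 in 11 and gene9772 in 10, and none of the 4 changed direction. Same-numbered libraries of 3 and 2 months in apple correlated at 0.331, 0.101, 0.0802, 0.0834 and -0.0445 in their deviations from the group means, and only replicate 1 correlated best with its own number, so the numbers were not taken as pairs. For 6 and 4 months in apple the values were 0.102, 0.101, 0.101, -0.0268 and 0.103, with 3 of 5 replicates best with their own number, and not all pairs were over 0.1. With a replicate block 295 features were called at 3 months in apple, 6 in hawthorn, 1 for the host difference, 36 at 6 against 4 months and 0 for isoform length. At these depths, changes of features under 1 CPM were the least detectable.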
